A study of Mus musculus with 8 samples.

Results

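Coagulation and other plasma protein genes were followed in epididymal white adipose tissue of mice, as the rows of the deposited gene tables whose symbol was among 36 fixed names. All 36 were found among the 18691 genes in the files. The mice were of strain C57BL/6J and aged 16 weeks, with 4 libraries from wild type animals (WT, replicates 1, 2, 3 and 4) and 4 labelled as knockout for Mrp4 (Mrp4-/-, replicates 1, 2, 4 and 5). Mrp4 is an efflux transporter encoded by Abcc4. The labels name no treatment, do not say how the allele was made, and leave unstated whether the libraries come from separate animals, so p-values measure the spread between these libraries.

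Plasma proteins are secreted into blood mainly by hepatocytes, the principal cells of the liver, and include carriers, protease inhibitors and the zymogens of the clotting cascade. In that cascade, factors VII, X, IX and XI and the cofactor factor V lead to thrombin, which turns fibrinogen into fibrin. Protein C and protein S restrain it, and plasmin dissolves the clot. Acute phase proteins are plasma proteins whose production changes in inflammation. Adipose tissue is known to make some of them itself, haptoglobin and orosomucoid among these.

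The sequences just upstream of 6 of these genes are shown because 4 of them, Alb and the 3 fibrinogen genes, rose together, while Saa1 and Saa2 did not pass. Each is the 250 bases before the RefSeq start, from the RefSeq promoter table of build GRCm38.p6, read 5′ to 3′ on the strand of the gene. Capitals mark TTNNGCAA or its reverse complement TTGCNNAA, letters bound by C/EBP factors, and CTGGGAA or its reverse complement, the type of site bound by STAT3. Both factors are known activators of acute phase genes.
Alb (chr5:90460620-90460869, plus strand): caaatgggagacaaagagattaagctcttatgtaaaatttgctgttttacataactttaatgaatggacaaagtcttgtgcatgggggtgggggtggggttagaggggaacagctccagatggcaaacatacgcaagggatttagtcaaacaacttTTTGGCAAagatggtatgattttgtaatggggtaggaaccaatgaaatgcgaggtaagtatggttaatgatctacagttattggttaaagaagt
Fga (chr3:83025903-83026152, plus strand): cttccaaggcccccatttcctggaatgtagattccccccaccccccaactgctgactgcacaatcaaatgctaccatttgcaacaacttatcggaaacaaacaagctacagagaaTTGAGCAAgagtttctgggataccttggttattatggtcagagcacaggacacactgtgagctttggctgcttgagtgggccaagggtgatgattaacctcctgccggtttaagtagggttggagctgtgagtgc
Fgb (chr3:83049864-83050113, minus strand): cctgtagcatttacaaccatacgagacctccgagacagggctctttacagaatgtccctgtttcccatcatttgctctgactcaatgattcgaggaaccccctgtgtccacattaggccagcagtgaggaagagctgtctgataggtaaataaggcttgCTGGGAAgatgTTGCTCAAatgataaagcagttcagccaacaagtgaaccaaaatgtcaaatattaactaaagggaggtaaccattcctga
Fgg (chr3:83007474-83007723, plus strand): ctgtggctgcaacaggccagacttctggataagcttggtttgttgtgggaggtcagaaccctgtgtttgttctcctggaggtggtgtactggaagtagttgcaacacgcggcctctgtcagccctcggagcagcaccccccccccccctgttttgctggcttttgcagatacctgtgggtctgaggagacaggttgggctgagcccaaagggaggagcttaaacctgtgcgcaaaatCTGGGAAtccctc
Saa1 (chr7:46742981-46743230, minus strand): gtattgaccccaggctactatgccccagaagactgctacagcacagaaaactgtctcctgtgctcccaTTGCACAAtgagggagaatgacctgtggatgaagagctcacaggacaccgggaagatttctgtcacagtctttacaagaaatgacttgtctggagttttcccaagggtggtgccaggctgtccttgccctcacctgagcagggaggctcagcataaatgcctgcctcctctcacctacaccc
Saa2 (chr7:46751583-46751832, plus strand): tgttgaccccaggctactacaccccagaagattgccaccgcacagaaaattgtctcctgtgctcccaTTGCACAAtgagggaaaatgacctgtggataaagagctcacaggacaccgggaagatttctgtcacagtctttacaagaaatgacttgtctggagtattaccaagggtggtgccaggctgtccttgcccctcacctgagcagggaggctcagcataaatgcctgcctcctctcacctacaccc

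The C/EBP letters stood in the windows of Alb, Fga, Fgb, Saa1 and Saa2, and the STAT3 letters in those of Fgb and Fgg. Of the 29 members matched to the table, 12 (41.4%) held the C/EBP letters on either strand, as did 9.56% of the 32851 upstream windows of all genes. Members are counted by gene, with a match in any window, whereas the shares over all genes are of single windows. The STAT3 letters were in 5 of the 29 (Gc, Fetub, Fgb, Fgg and F9) and in 9.1% of all windows. For the HNF1 site, known from liver promoters, only a fixed spelling and its reverse complement were searched. These letters were in the windows of Gc and F13b and in 0.371% of all windows. Close spellings were not counted, and the printed windows of Alb, Fga and Fgb hold such spellings. The search therefore does not show that the other members lack an HNF1 site. A match describes these letters and does not show a bound site. The Saa1 and Saa2 windows were identical at 238 of 249 aligned bases. Ttr, Trf, Hp, Orm1, Kng1, Plg and Proc had no entry.

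Most of these plasma protein genes had more transcript in the libraries labelled Mrp4-/-, Alb, the fibrinogen chains and F2 among them. Expected counts, the authors' estimates of reads per gene, were compared with the quasi-likelihood test of edgeR, with p-values adjusted by Benjamini and Hochberg's method over 14257 tested genes, and levels are given as FPKM, fragments scaled to transcript length and to library size. Of the 35 members tested, 29 rose, where 10.2% of all tested genes did. 1 member, Trf, fell, where 8.05% of all tested genes did, and 5 (Hp, Saa1, Saa2, F5 and Pros1) did not pass. The median log2 fold change of the tested members was 3.61, beside 0.00 over all tested genes. For 29 of the 36 genes every library labelled Mrp4-/- lay above every WT library, which held for 16.4% of all tested genes. For Trf alone every such library lay below WT, which held for 7.08% of all tested genes. The members were chosen with results of these data known, and 13 of the 35 missed 10 counts in some WT library, so that their entry to the test leaned on other libraries, for most of them those labelled Mrp4-/-. Of the 22 with at least 10 counts in each WT library, 18 rose.

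**Figure D1:**
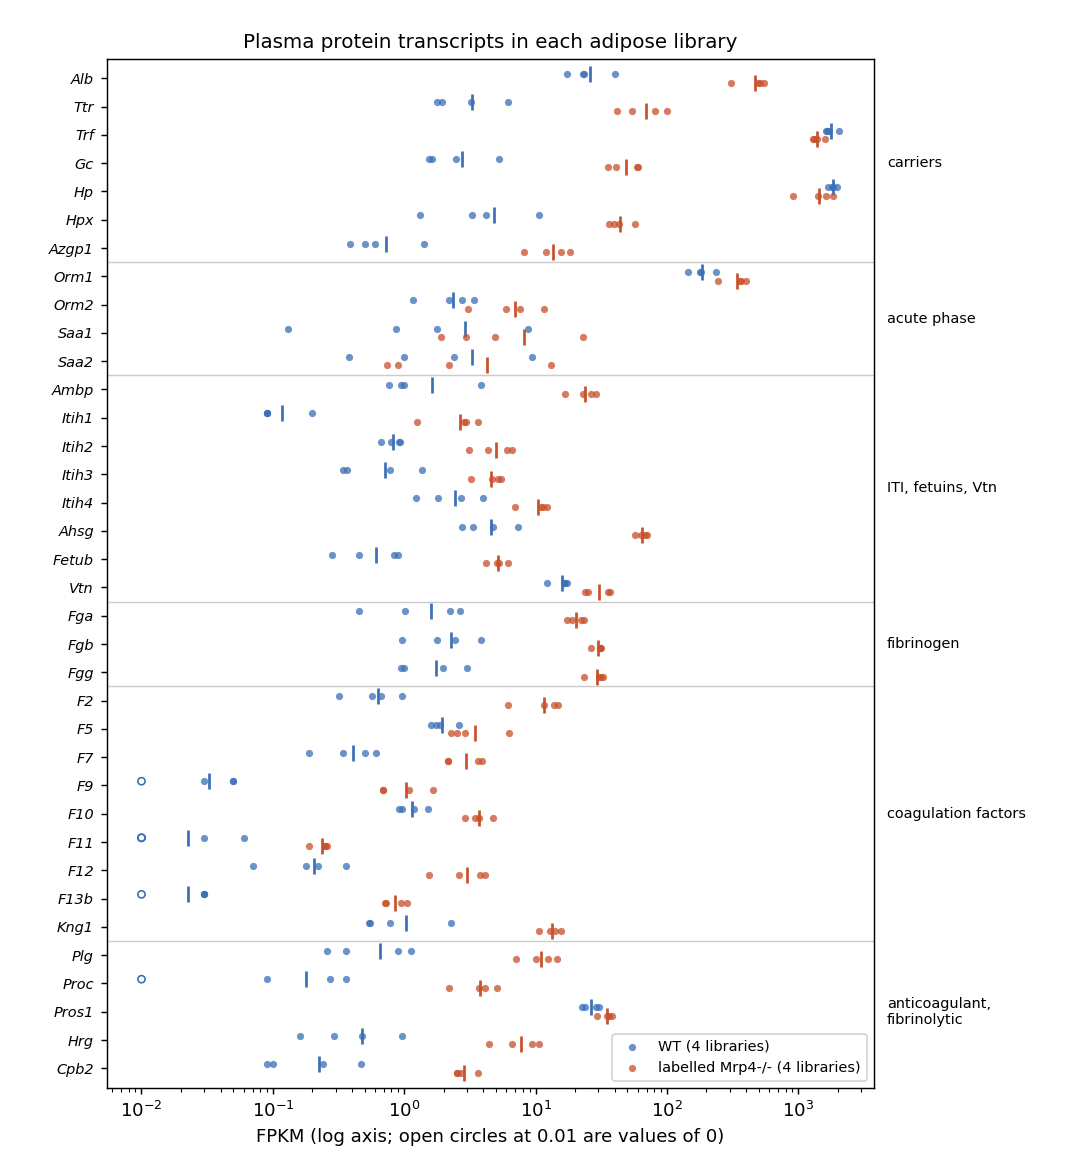
FPKM of the 36 plasma protein genes in each library on a log axis, with blue points for the 4 WT libraries, red points for the 4 libraries labelled Mrp4-/- vertical ticks for group means and open circles for values of 0. The groups are apart for 30 genes and overlap for Hp, Orm2, Saa1, Saa2, F5 and Pros1, and of the 30 Trf alone is lower in the libraries labelled Mrp4-/-.

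No fall of Abcc4 transcripts was detected in the libraries labelled Mrp4-/-. The gene stood at 3.52 ± 0.232 FPKM in WT and at 3.61 ± 0.244 FPKM in the other group (SD, n = 4; log2 fold change -0.05, 95% interval -0.23 to 0.13, edgeR adjusted p = 0.692), and 4 of the alternative analyses gave values from 0.01 to 0.04. Expected counts summed to between 14064681 and 14700114 per library. The adipocyte hormone gene Adipoq was at 2614 ± 181 FPKM in WT and 2457 ± 133 FPKM in the other group.

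Transcripts of hepatocytes that are not secreted moved with the plasma protein genes. Of 20 such genes, all listed in the files, 19 were tested, with a median log2 fold change of 3.60. Of the 19, 16 rose, where 10.2% of all tested genes did, and 3 (Fah, Gys2 and Cyp2f2) did not pass. The summed level of the 20 ran from 115 to 146 FPKM in WT, where Fah alone averaged 103, and from 171 to 278 FPKM in the libraries labelled Mrp4-/-. None of the 20 was at 0 in every library of a group. Hnf4a, a nuclear receptor on this list, rose from 0.195 ± 0.01 to 2.29 ± 0.956 FPKM, and Cyp3a11, a drug-metabolising enzyme, from 1.41 ± 0.798 to 27.4 ± 8.74 FPKM. Other genes of the list with low p-values, Hpd, Baat (8 counts in all of WT) and Slco1b2 (21 counts), rose by 3.60, 4.42 and 4.76 on the log2 scale. The part of these transcripts in the results below was not tested. In tissue RNA, more cells of a type and more RNA per cell cannot be told apart.

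Among the carriers and scavengers, Alb, Ttr, Gc, Hpx and Azgp1 rose, Trf fell and Hp did not pass. Alb, serum albumin, was at 40.05, 23.1, 23.5 and 17.45 FPKM in WT replicates 1 to 4 and at 309.98, 553, 509 and 496 FPKM in replicates 1, 2, 4 and 5 labelled Mrp4-/-. The lowest library labelled Mrp4-/- thus stood well above the highest WT library, and the mean was 17.9 times that of WT (log2 fold change 4.10 ± 0.29 SE, edgeR adjusted p = 0.000168). Ttr, the thyroid hormone carrier transthyretin, was at 6.22, 1.94, 3.24 and 1.77 FPKM in WT and at 41.3, 99.9, 81.6 and 54.7 FPKM in the other group. Gc, the vitamin D binding protein, rose from a mean of 2.74 ± 1.76 to 49 ± 12.6 FPKM. In both genes WT replicate 1 was the highest WT library and replicate 1 the lowest of the libraries labelled Mrp4-/-, as in Alb. Their log2 fold changes were 4.33 ± 0.41 and 4.09 ± 0.37.

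Hpx, hemopexin, which binds free haem, followed another order among the libraries. Its WT levels were 10.6, 1.31, 3.29 and 4.23 FPKM, and those labelled Mrp4-/- were 56.95, 39.5, 43.2 and 36.5 FPKM. Replicate 1 was thus the highest in both groups, and the log2 fold change was 3.11 ± 0.47 (edgeR adjusted p = 0.00418), or 3.83 without WT replicate 1. Azgp1, zinc-alpha-2-glycoprotein, which is known to promote lipid release from adipocytes, rose from 0.728 ± 0.47 to 13.6 ± 4.37 FPKM.

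Trf and Hp were by far the most abundant members in WT. Trf, the iron carrier transferrin, was at 1661, 1623, 2050 and 1712 FPKM in WT and at 1325, 1393, 1589 and 1294 FPKM in the libraries labelled Mrp4-/-. The groups did not overlap, but the fall was small (log2 fold change -0.40 ± 0.12, edgeR adjusted p = 0.0486), and the call was lost without any 1 of 7 libraries, all but WT replicate 2, with values from -0.46 to -0.32. Hp, haptoglobin, which binds free haemoglobin, was at 1682, 1821, 1840.0 and 1986 FPKM in WT and at 1416, 1823, 1616 and 915 FPKM in the other group. Replicate 5 labelled Mrp4-/- was the low library, the groups overlapped, and the log2 fold change of -0.41 (95% interval -0.82 to 0.00) did not pass (edgeR adjusted p = 0.142). The mean of Alb was 441 FPKM above that of WT, while the mean of Trf went from 1761 to 1400.0 FPKM and that of Hp from 1832 to 1443 FPKM. The 36 genes together summed to 3690.2 to 4175 FPKM in WT and 3557 to 4661 FPKM in the other group, whereas without Trf and Hp they summed to 233 to 347 and 1142 to 1456 FPKM.

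**Figure D2:**
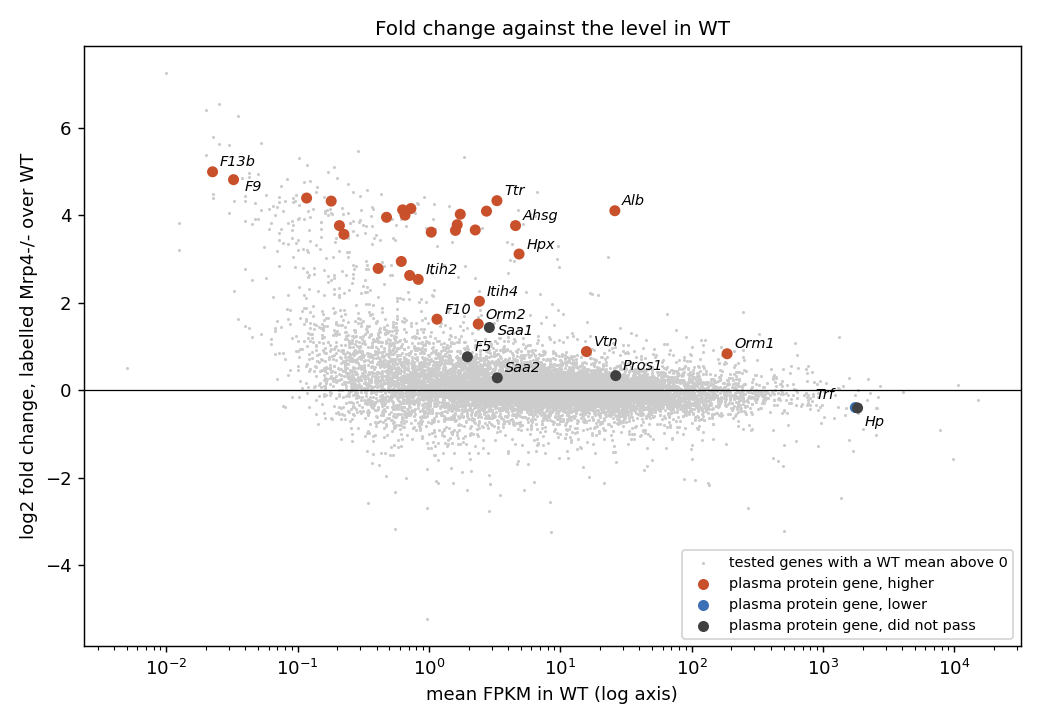
Log2 fold change from edgeR against mean FPKM in WT on a log axis, with grey points for all tested genes that were above 0 in WT and coloured points for the tested plasma protein genes. Of the 6 genes at 10 FPKM or more in WT (Alb, Trf, Hp, Orm1, Vtn and Pros1), Alb alone is above 1, and the other 29 lie between 0.28 and 4.99.

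In the acute phase group, Orm1 and Orm2 rose, whereas Saa1 and Saa2 did not pass. Orm1, an orosomucoid that carries drugs and steroids in plasma, was at 183, 238, 178 and 145 FPKM in WT and at 358, 246, 365 and 403 FPKM in the libraries labelled Mrp4-/-. These libraries all lay above WT, replicate 2 only narrowly, with a log2 fold change of 0.83 ± 0.18 (edgeR adjusted p = 0.0155). Its copy Orm2 was at 3.37, 2.73, 2.2 and 1.17 FPKM in WT and at 11.6, 3.04, 7.58 and 5.91 FPKM in the other group, so the groups overlapped. The rise of Orm2 (1.51 ± 0.42, edgeR adjusted p = 0.037) was lost in 6 of 8 analyses that left out 1 library (WT replicates 1, 3 and 4 and replicates 1, 4 and 5 labelled Mrp4-/-), with values of 1.17 to 1.76 over the 8. Orm1 and Orm2 transcripts were 91% identical and shared 6.95% of their windows of 100 bases, the read length, so their division is uncertain. The related Orm3 was at 5.06 ± 1.25 and 8.48 ± 2.04 FPKM and did not pass (edgeR adjusted p = 0.0532), a gene named after its values were seen.

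Saa1 and Saa2 encode serum amyloid A proteins, which rise steeply in plasma in inflammation. Saa1 was at 8.76, 0.13, 0.87 and 1.77 FPKM in WT and at 22.9, 4.91, 2.96 and 1.91 FPKM in the libraries labelled Mrp4-/-. Saa2 was at 9.46, 0.38, 0.99 and 2.39 FPKM in WT and at 13.1, 2.2, 0.74 and 0.89 FPKM in the other group. In both genes replicate 1 was the highest library of each group, and the groups overlapped. The log2 fold changes were 1.43 (95% interval -0.82 to 3.67, edgeR adjusted p = 0.337) and 0.28 (-2.04 to 2.61, edgeR adjusted p = 0.873). Without WT replicate 1 they were 3.06 and 1.67, and without replicate 1 labelled Mrp4-/- they were 0.12 and -1.41. Saa1 was below Saa2 in all 4 WT libraries, at 0.342 to 0.926 of its level, and above it in all 4 others, at 1.75 to 4.00 times. That ratio was chosen after its values were seen and rests on 1 and 3 counts in WT replicate 2. The 2 transcripts were 94.4% identical and shared no window of 100 bases.

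All 8 genes of the inter-alpha-inhibitor family, the fetuins and vitronectin rose. Ambp encodes a precursor that is split into alpha-1-microglobulin and bikunin, the light chain of inter-alpha-inhibitor, and Itih1 to Itih4 encode heavy chains or their relatives. Ambp was at 3.85, 0.94, 0.99 and 0.77 FPKM in WT and at 16.8, 28.8, 26.3 and 22.8 FPKM in the libraries labelled Mrp4-/-. WT replicate 1 stood above the other WT libraries but below all 4 of the other group, and the log2 fold change was 3.78 ± 0.42, or 4.65 without it. Itih1 rose from 0.117 ± 0.055 to 2.67 ± 1.01 FPKM (log2 fold change 4.39 ± 0.42), the largest rise of the family by fitted fold. Itih2, Itih3 and Itih4 rose by 2.53, 2.62 and 2.03 on the log2 scale, and Itih4 reached 10.4 ± 2.29 FPKM. In the GRCm38.p6 gene table Itih1, Itih3 and Itih4 stand side by side on chromosome 14, with no other protein-coding gene between them.

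Ahsg, fetuin-A, which keeps calcium phosphate from precipitating in plasma, was at 7.38, 3.35, 4.75 and 2.75 FPKM in WT and at 56.9, 67.9, 70.9 and 63 FPKM in the libraries labelled Mrp4-/-. Those 4 libraries were close to each other, with a coefficient of variation of 9.47%, and the log2 fold change was 3.76 ± 0.25 (edgeR adjusted p = 0.000141). Its relative Fetub rose by 2.94. Vtn, vitronectin, a plasma and matrix protein that binds integrins, had the highest WT level of this group and rose least. It was at 17.4, 12.3, 16.6 and 16.9 FPKM in WT and at 23.75, 35.7, 36.7 and 25.25 FPKM in the other group (log2 fold change 0.88 ± 0.17, edgeR adjusted p = 0.0121).

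The 3 fibrinogen chains rose together. Fibrinogen is built from equal numbers of its alpha, beta and gamma chains, encoded by Fga, Fgb and Fgg, which are neighbours on chromosome 3 in the GRCm38.p6 gene table. Fga was at 2.64, 0.45, 2.24 and 1.02 FPKM in WT and at 17.5, 22, 23.3 and 19.1 FPKM in the libraries labelled Mrp4-/-. Fgb was at 3.84, 0.96, 2.43 and 1.79 FPKM in WT and at 30.8, 31.25, 30.7 and 26.5 FPKM in the other group. Fgg was at 3.01, 0.94, 1.99 and 0.99 FPKM in WT and at 30.6, 31.7, 32.5 and 23.2 FPKM there. Their WT levels were ordered alike, from replicate 1 through 3 and 4 down to replicate 2, and no library of either group came near the other group. The log2 fold changes were 3.65 ± 0.37, 3.66 ± 0.29 and 4.02 ± 0.29, with edgeR adjusted p of 0.000532, 0.000232 and 0.0002. In the libraries labelled Mrp4-/- the level of Fgb was 0.946 to 1.14 times that of Fgg, while that of Fga was 0.572 to 0.823 times.

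**Figure D3:**
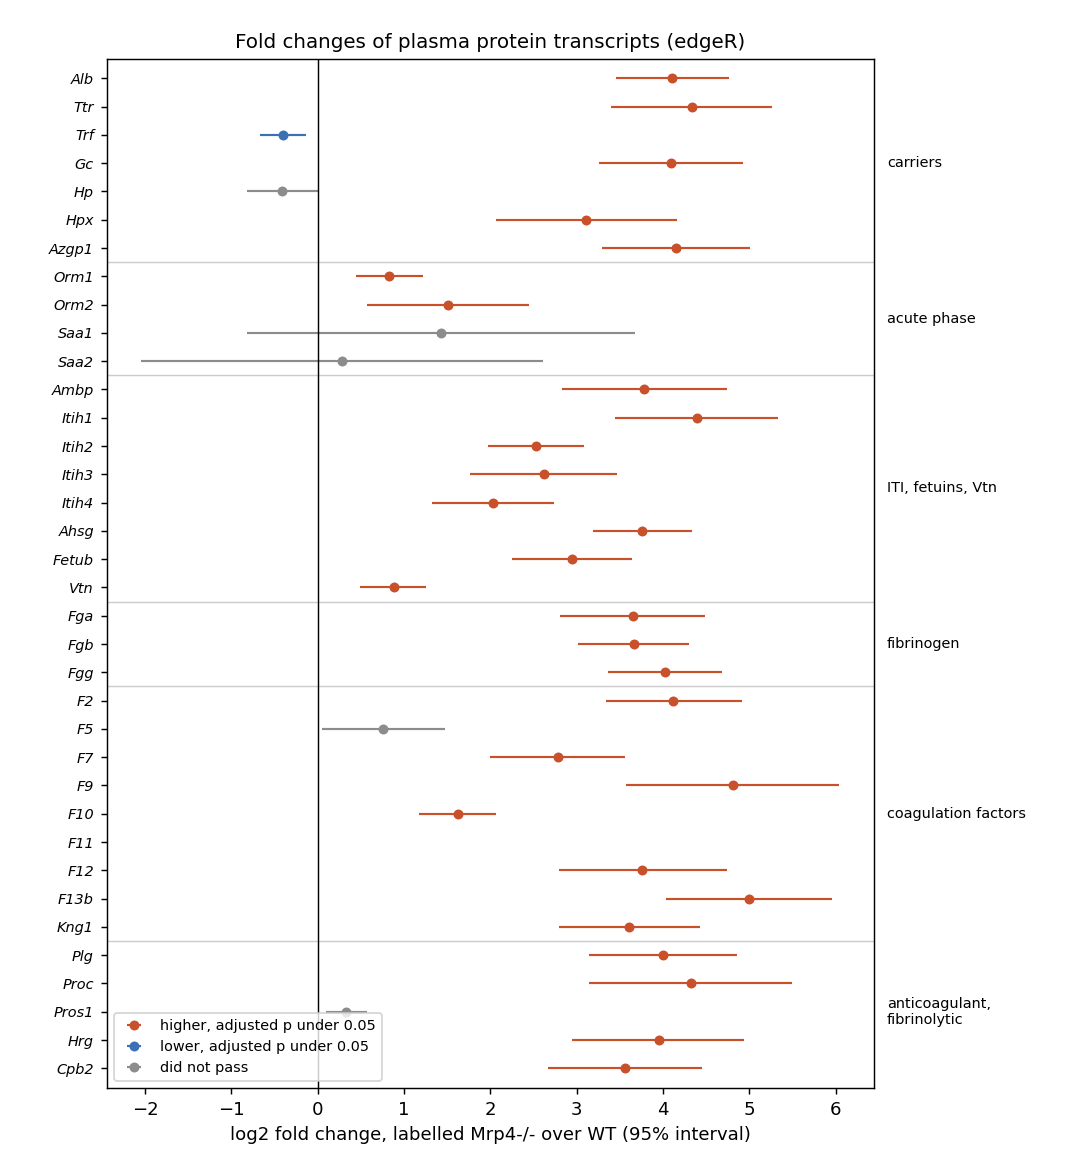
Log2 fold changes of the tested plasma protein genes with 95% intervals from edgeR, in red where higher, blue where lower and grey where not passed, grouped by role; F11 was not tested and has no point. The 3 fibrinogen chains lie between 3.65 and 4.02, while Orm1, Vtn, F5 and Pros1 lie between 0.33 and 0.88.

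Among the coagulation factors, F2, F7, F9, F10, F12, F13b and Kng1 rose, F5 did not pass, and F11 was too low to be tested. F2, prothrombin, was at 0.96, 0.57, 0.67 and 0.32 FPKM in WT and at 6.21, 14.7, 13.7 and 11.6 FPKM in the libraries labelled Mrp4-/- (log2 fold change 4.12 ± 0.35, edgeR adjusted p = 0.000299). F12, the factor that starts the contact pathway, and Kng1, kininogen, its cofactor and the source of bradykinin, rose by 3.76 ± 0.44 and 3.61 ± 0.36. Without WT replicate 1 the value of Kng1 was 4.30. Kng1 reached 13.3 ± 2.07 FPKM. The Kng1 and Kng2 transcripts were 93.5% identical, so reads can be divided between them, and Kng2 rose as well (2.42 ± 0.27).

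F7 and F10, neighbours on chromosome 8 that act at the tissue factor step and at the step before thrombin, had smaller fitted fold changes than F2. F7 was at 0.19, 0.61, 0.34 and 0.5 FPKM in WT and at 3.94, 2.14, 3.63 and 2.14 FPKM in the other group. F10 was at 1.51, 0.97, 1.19 and 0.91 FPKM in WT and at 4.71, 3.45, 3.72 and 2.88 FPKM in the other group. Replicate 1 labelled Mrp4-/- was the highest library for both, whereas it was the lowest for F2, F12 and Kng1. The log2 fold changes of F7 and F10 were 2.78 ± 0.35 and 1.62 ± 0.20; the difference between genes was not tested.

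F5, the cofactor of factor X, was at 2.62, 1.59, 1.75 and 1.86 FPKM in WT and at 6.26, 2.54, 2.88 and 2.26 FPKM in the libraries labelled Mrp4-/-. Replicate 1 of that group stood far above the rest, the groups overlapped, and the log2 fold change was 0.76 (95% interval 0.05 to 1.47, edgeR adjusted p = 0.12), or 0.33 without that library. Counts of F9, F11 and F13b were few in WT: 5, 3 and 3 over the 4 libraries together, against 161, 30 and 116 in the other group. After scaling to library size, the ratios of counts were 32.2 for F9 (95% interval 13.5 to 101), 10 for F11 (3.11 to 51.2) and 38.7 for F13b (12.9 to 190.2), exact intervals that cover counting error only. In FPKM these 3 stayed low in the libraries labelled Mrp4-/-, at 1.03 ± 0.454, 0.237 ± 0.032 and 0.858 ± 0.165.

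Of the anticoagulant and fibrinolytic proteins, Plg, Proc, Hrg and Cpb2 rose and Pros1 did not pass. Plg, plasminogen, the precursor of plasmin, was at 1.12, 0.26, 0.89 and 0.36 FPKM in WT and at 7.12, 12.4, 14.5 and 10.1 FPKM in the libraries labelled Mrp4-/- (log2 fold change 4.00 ± 0.38, edgeR adjusted p = 0.000427). Proc, protein C, which inactivates factors V and VIII, rose from 0.18 ± 0.164 to 3.79 ± 1.19 FPKM, with 16 counts in all of WT. Hrg, histidine-rich glycoprotein, and Cpb2, a carboxypeptidase that slows fibrinolysis, rose by 3.95 ± 0.44 and 3.56 ± 0.40, or 4.55 and 4.20 without WT replicate 1.

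Pros1, protein S, the cofactor of protein C, was at 22.65, 28.8, 30.2 and 23.8 FPKM in WT and at 38.2, 35.3, 36.25 and 29.2 FPKM in the libraries labelled Mrp4-/-. Its groups overlapped at replicate 5 labelled Mrp4-/- and WT replicate 3, and the log2 fold change of 0.33 (95% interval 0.10 to 0.57) did not pass (edgeR adjusted p = 0.0518). It passed in 8 of 19 alternatives, with values of 0.27 to 0.47 over all 19. Protein C and protein S thus had unlike levels, since Pros1 was the higher of the 2 in every library.

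The members did not vary alike among the libraries labelled Mrp4-/-. Replicate 1 was the lowest of the 4 for 22 of the 36 genes, Alb, Ttr, Itih1, F2 and Plg among them, and the highest for 8 (Hpx, Orm2, Saa1, Saa2, F5, F7, F10 and Pros1). Replicate 4 was the highest for 16 genes and replicate 2 for 10. In WT, replicate 1 alone was the highest library for 26 of the 36. Taken as a percent of Alb in the same library, Ambp moved by 1.18 times between its lowest and highest library labelled Mrp4-/-, and Itih4 by 1.21 times. The corresponding values were 4.44 for F5, 6.79 for Orm2, 19.2 for Saa1 and 29.1 for Saa2.

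**Figure D4:**
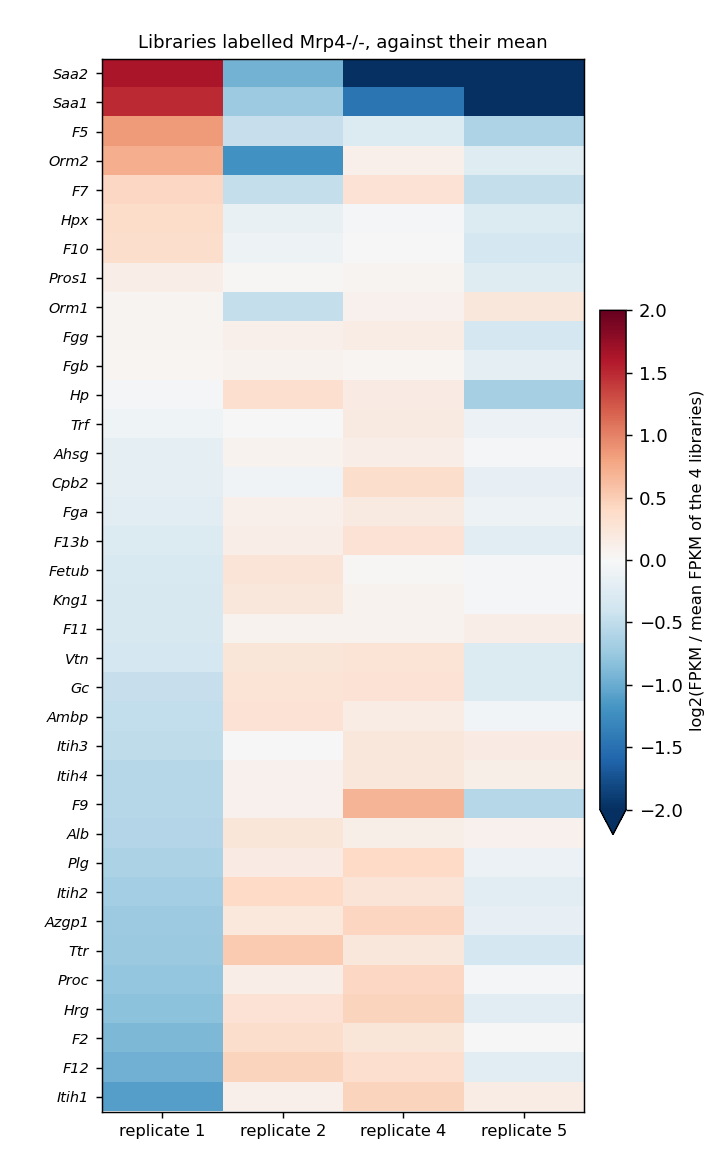
Level of each of the 36 genes in the 4 libraries labelled Mrp4-/-, as log2 of FPKM over the gene's mean in these libraries, ordered by replicate 1. Replicate 1 is high for Saa2, Saa1, F5 and Orm2 at the top and low for the genes from Ahsg down to Itih1; values under -2 are drawn in the darkest blue.

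Other markers differed between these libraries too. The summed hepatocyte list was at 171, 268, 278 and 222 FPKM in replicates 1, 2, 4 and 5 labelled Mrp4-/-, lowest where Alb was lowest. The summed level of 7 macrophage markers found in the files was highest in replicate 1 of that group, at 328 FPKM, and 264 to 301 FPKM in the other 3, beside 198 to 229 FPKM in WT. Of these 7, 3 rose, where 10.2% of all tested genes did, and 4 did not pass. The 3 were Mpeg1, Itgax and Cd68, by 1.24, 1.53 and 0.47. Cd68 lost its call without any 1 of WT replicates 1, 3 and 4 and replicates 1 and 4 labelled Mrp4-/-. The 7 mesothelial markers summed to 59.5 FPKM in that replicate, 106 to 162 FPKM in the other 3 and 163 to 253 FPKM in WT. Wt1 alone of them passed (-1.30). Krt19, Krt7, Upk1b, Upk3b and Lrrn4 had log2 fold changes of -1.14, -1.08, -1.02, -0.86 and -0.73. They did not pass, at edgeR adjusted p of 0.0584 to 0.0803. Msln, named after its values were seen, was at -0.18. The part of all these markers in the pattern was not tested.

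Relative to Alb, 23 of the 35 other members had ranges that overlapped between the groups. Of all tested genes, 97.8% had a lower share in every library labelled Mrp4-/- and 0.0701% a higher one. Among the 23, F9, F11 and Proc had 5, 3 and 16 counts in all of WT and 0 in some WT library, so their shares in WT are poorly known. Saa1 and Saa2, which did not pass, are also among the 23 and varied widely. Saa1 stood at 0.562 to 21.9% of Alb in WT and at 0.385 to 7.37% in the other group. For Saa2 the ranges were 1.64 to 23.6% and 0.145 to 4.23%. Ahsg stood at 14.5 to 20.2% of the Alb level in WT and at 12.3 to 18.4% in the libraries labelled Mrp4-/-, and Gc at 6.66 to 13.3% and 8.2 to 11.8%. For 11 members (Trf, Hp, Orm1, Orm2, Itih2, Itih3, Itih4, Vtn, F5, F10 and Pros1) the share was lower in every library labelled Mrp4-/-, as it was for 97.8% of all tested genes. Vtn, as an example, stood at 43.5 to 96.8% of Alb in WT and at 5.09 to 7.66% in the libraries labelled Mrp4-/-. F13b alone, with 3 counts in all of WT, had a higher share in each of them, as did 0.0701% of all tested genes. These shares are a description and were not tested.

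Genes of the clotting system outside the 36 moved in part. Of 37 further coagulation and fibrinolysis genes, 36 were in the files and 34 were tested, with a median log2 fold change of 0.25. Of the 34, 10 rose, where 10.2% of all tested genes did, and 24 did not pass. The inhibitor genes Serpinc1 (antithrombin), Serpind1 (heparin cofactor II), Serpina10 (the inhibitor that acts with protein Z) and Serpinf2 (antiplasmin) rose by 4.19, 4.01, 3.67 and 4.12, as did Proz (protein Z, 2.37) and Kng2. Serpina10 and Serpind1 had 13 and 23 counts in all of WT. Serpinc1 rose from 0.635 ± 0.48 to 12.2 ± 4.08 FPKM, and its log2 fold change was 4.84 without WT replicate 1. The other 4 that rose, named after their values were seen, were Klkb1 (3.44), F2rl3 (1.88), Tfpi2 (1.16) and S100a10 (0.40), the last 2 losing the call without any 1 of 6 libraries each (all but WT replicate 2 and replicate 5 labelled Mrp4-/- for Tfpi2, all but WT replicates 2 and 3 for S100a10). 3 of the genes that did not pass are given as examples, also chosen after their values were seen. Vwf, which carries factor VIII, was at 26.7 ± 4.13 and 25 ± 3.26 FPKM, Thbd at 110.1 ± 13.3 and 94.8 ± 24 FPKM, and F13a1, the catalytic partner of F13b, at 66.4 ± 8.55 and 64.2 ± 11.2 FPKM.

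Among 27 other plasma protein genes 26 were tested, with a median log2 fold change of 2.25. Of the 26, 16 rose, 2 fell and 8 did not pass, where 10.2% of all tested genes rose and 8.05% fell. Apoh, which binds phospholipid, Afm, a vitamin E carrier, Habp2, a hyaluronan-binding protease, the complement gene C8a, the lectin gene Mbl1 and the protease inhibitor gene Pzp rose by 4.41, 4.86, 4.14, 4.05, 4.10 and 3.69. Afm, Mbl1, Habp2 and C8a had 5, 6, 7 and 33 counts in all of WT. Their entry to the test thus leaned on the libraries labelled Mrp4-/-. Pzp rose from 1.12 ± 0.803 to 15.1 ± 3.71 FPKM, and its log2 fold change was 4.31 without WT replicate 1. Others that rose, named after their values were seen, include Crp (3.82), Hamp (4.06), Apcs (4.09), Saa4 (3.16) and Lbp (1.22). Apcs, with 9 counts in all of WT, lost the call without either WT replicate 3 or WT replicate 4, and Saa4 and Lbp without WT replicate 4. Saa3, Lrg1 and Lcn2 of the same list did not pass. The 2 that fell, named after their values were seen, were Cp, the copper carrier ceruloplasmin, from 61.1 ± 9.68 to 36.6 ± 6.95 FPKM (-0.80 ± 0.15), and Agt, angiotensinogen, from 287 ± 60.3 to 161 ± 36.9 FPKM (-0.90 ± 0.19).

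**Figure D5:**
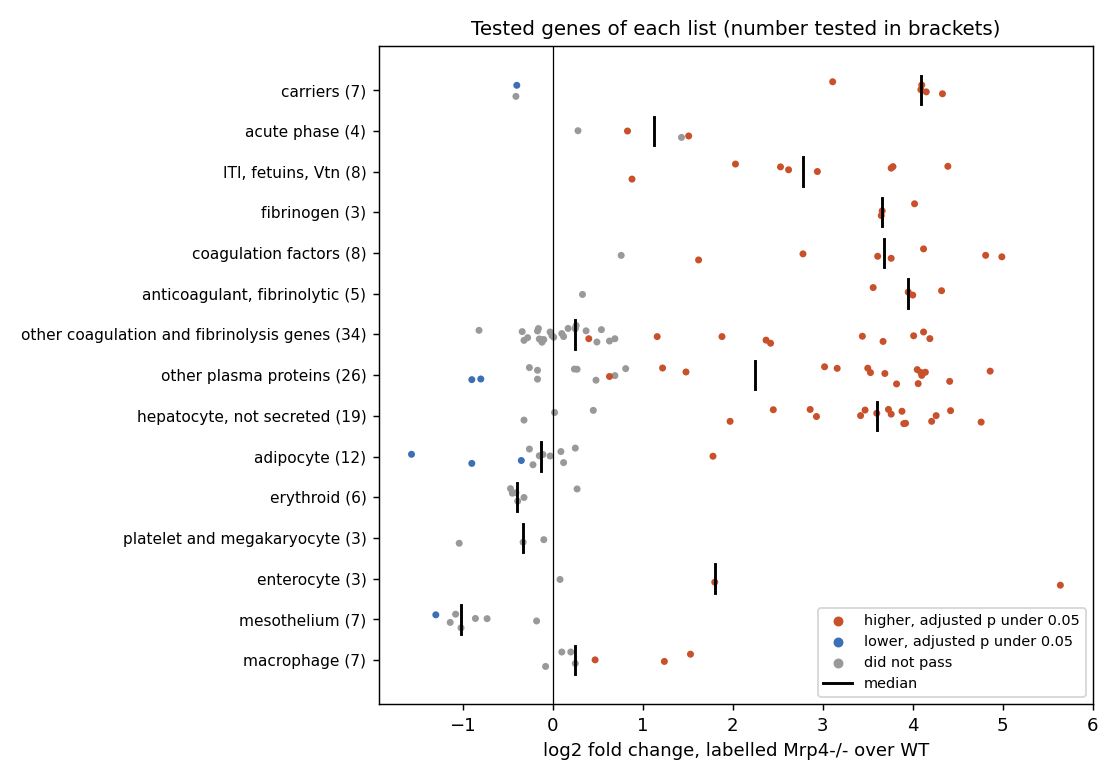
Log2 fold change of each tested gene in the 6 role groups of the plasma protein genes, the 2 lists of other genes and the marker lists with at least 3 tested genes, with black bars for medians and the number tested in brackets. The hepatocyte list has a median of 3.60, other coagulation and fibrinolysis genes 0.25 and adipocyte markers -0.13.

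Markers of other cell types and tissues were read in the same way, beside 10.2% of all tested genes that rose and 8.05% that fell. Of 12 adipocyte markers 1 rose (Lep), 3 fell (Retn, Cfd and Plin1) and 8 did not pass, with sums of 46042 to 51869 FPKM in WT and 39353 to 47408 FPKM in the other group. Lep had a log2 fold change of 1.78, or 2.38 without WT replicate 2. Lep and Plin1 each lost the call without any 1 of 4 libraries (WT replicates 1, 3 and 4 and replicate 5 labelled Mrp4-/- for Lep; WT replicate 4 and replicates 1, 2 and 4 labelled Mrp4-/- for Plin1). The 6 tested erythroid and 3 tested platelet markers did not pass. Their sums overlapped between the groups, at 3231 to 5518 and 2007 to 4491 FPKM for the erythroid list. Of 8 pancreas acinar genes in the files 1 was tested, Cela1, which rose from 7.21 ± 0.922 to 15.3 ± 3.6 FPKM, and the other 7 were at or near 0 in every library. Of 7 enterocyte genes in the files 2 of 3 tested rose, Apoa4 (5.64, with 5 counts in all of WT) and Vil1 (1.80). Vil1 lost the call without any 1 of WT replicates 1, 3 and 4 and replicates 2 and 5 labelled Mrp4-/-. Of 8 kidney genes 1 was tested and did not pass, and the 5 epididymis genes in the files were too low to be tested, with a sum of 13.8 FPKM in WT replicate 2 and of at most 0.74 FPKM elsewhere.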

How the data were processed

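RNA-seq libraries of epididymal white adipose tissue were analysed, 4 WT and 4 labelled Mrp4-/-. Per the submitters' processing notes reads were aligned with Bowtie2 to build mm9; no source used here names the counting tool. The authors deposited an expected count and an FPKM per gene and library. Expected counts were rounded and fitted with edgeR 4.0.16 in R 4.3.3 (filterByExpr with a minimum count of 10, TMM scaling, robust quasi-likelihood test), which kept 14257 genes and removed 4434. Genes were called at an adjusted p under 0.05, and log2 fold changes are given with a standard error or a 95% interval. FPKM values are used as levels. Limma 3.58.1, DESeq2 1.42.0, other scalings, filters and left-out libraries were alternatives. The script was tested on simulated data. The members and lists were chosen with earlier results of these data known. Of each other list, up to 6 genes of lowest p were named, if either group averaged 1 FPKM or more. 1 gene that this rule names is not reported here.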

Additional observations from a re-analysis of the deposited data

Results flagged for a closer look

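In 10 of 72 groups of 4 libraries, 1 library stood apart from the other 3 by Dixon's 95% criterion, where chance gives about 1 in 20. In replicate 1 labelled Mrp4-/-, Saa1 was at 22.86 FPKM (others 1.91 to 4.91), Saa2 at 13.1 (0.74 to 2.2) and F5 at 6.26 (2.26 to 2.88), while F11 was at 0.19 (0.25 to 0.26). In WT replicate 1, Ambp was at 3.85 FPKM (others 0.77 to 0.99), Kng1 at 2.29 (0.54 to 0.78) and Itih1 at 0.2 (0.09 in each). Vtn was low in WT replicate 2, at 12.27 FPKM (16.57 to 17.43), and Fgb in replicate 5 labelled Mrp4-/-, at 26.46 FPKM (30.74 to 31.25). F13b was at 0 in WT replicate 4 and at 0.03 FPKM in the other 3, which is the level of a single count. Few counts also underlie the flag of F11, with 6 against 8 in each other library of its group. That of Itih1 rests on 9 against 4 in each.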

How the results depend on the processing

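Of the 35 tested plasma protein genes, 10 were called in all 19 alternatives as in the main analysis, 3 (Hp, Saa1 and F5) passed in none, 20 lost the call in some, Pros1 gained one and Saa2 changed direction. All 20 lost it with the replicate number as a block, and only Trf, Orm1, Orm2 and Vtn lost it in other alternatives too. The log2 fold change of Saa2 was -0.09 without WT replicate 2, -0.02 without WT replicate 3 and -1.41 without replicate 1 labelled Mrp4-/-, in a range of -1.41 to 1.67 when 1 library was left out. Abcc4 changed sign to 0.02 with library size alone, 0.03 and 0.04 with limma on log2(FPKM + 1) and log2(FPKM + 0.1), and 0.01 with the replicate number as a block. Genes differing by genotype numbered 2606, 551 at an adjusted p under 0.01, and 1172 to 3683 when 1 library was left out. The number of members that fell was 0, in place of 1, with library size alone, upper quartile factors, no filter, both limma fits on FPKM, the replicate block and the stricter threshold, and 0 to 1 when 1 library was left out. Of all calls 55.9% were higher, against 74.1% with library size alone and 73.1% and 73.0% with limma on FPKM. The cause was not tested. With the replicate block, 141 genes differed, 10 members rose, and 4 other coagulation genes and 5 other plasma protein genes differed; same-numbered libraries did not deviate together (correlations 0.0107, -0.0746 and -0.128), so the numbers do not pair them. Among the members, few counts in WT limit F9, F11 and F13b most. Proc, Cpb2, Itih1 and F12 had 16, 19, 21 and 23 counts in all of WT. Outside the members, Afm, Apoa4, Mbl1, Habp2, Baat and Apcs had 5, 5, 6, 7, 8 and 9, so their fold changes are limited alike.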
